A study of Mus musculus with 8 samples.

Results

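The genes for G9a, GLP and other methyltransferases of lysine 9 on histone H3 (H3K9), with those of their partner proteins, were followed in mouse interfollicular epidermis (the surface epithelium of the skin outside the hair follicles). The list holds 10 genes: Ehmt2, Ehmt1, Wiz, Zfp644, Suv39h1, Suv39h2, Setdb1, Setdb2, Trim28 and Cdyl. Every probe set that the platform annotation assigns to one of them was used, which gave 21 of the 45037 probe sets tested. A probe set is the group of short oligonucleotides that together give 1 value for a transcript on the array. Zfp644 has 6 probe sets, Suv39h2 and Cdyl have 3 each, Ehmt2, Setdb1 and Trim28 have 2 each, and Ehmt1, Wiz and Setdb2 have 1 each. No probe set used here was assigned to Suv39h1, which was therefore not analysed here. None of the 21 probe sets was assigned to a further gene.

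Each group comprised 4 arrays of epidermal RNA. One group came from animals labelled G9a cKO, read here as a conditional knockout of the G9a gene, and the other from animals labelled G9a WT. Animals of both groups were 15 weeks old and had been treated on the shaved back with DMBA, a mutagen, and TPA, a phorbol ester that promotes tumours, so that no untreated skin enters the comparison. Applications of 200 µl, at 0.25 mg/ml for DMBA and 0.02 mg/ml for TPA, began at 8 weeks of age and were repeated each week for 6 weeks, and the skin was taken at a stage that the labels call pre-neoplastic. The labels used here do not give the Cre driver, the cells in which it acts or the part of Ehmt2 that it removes.

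Methylation of H3K9 marks chromatin that is kept silent. G9a, the product of Ehmt2, and GLP, the product of Ehmt1, act mainly as a heterodimer that places 1 or a pair of methyl groups on H3K9 in euchromatin, whereas SUV39H1, SUV39H2 and SETDB1 can carry the mark on to trimethylation at pericentromeric repeats and retroelements. WIZ and ZNF644 (Zfp644 in the mouse) are zinc finger proteins of the G9a-GLP complex, TRIM28 is the corepressor through which KRAB zinc finger proteins recruit SETDB1, and CDYL is a chromodomain protein that binds methylated H3K9 and associates with G9a.

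The sequences at the annotated starts of Ehmt2 are shown because the results turn on this gene, and because its probe sets disagree. RefSeq lists 2 windows of 300 bases for it, each around an annotated start, on the plus strand of build GRCm38.p6. Capitals mark the GC box GGGCGG, the motif of Sp and KLF factors, and the E box CACGTG, searched on both strands. No 2 marked motifs overlap.
Ehmt2 window 1, chr17:34898224-34898523: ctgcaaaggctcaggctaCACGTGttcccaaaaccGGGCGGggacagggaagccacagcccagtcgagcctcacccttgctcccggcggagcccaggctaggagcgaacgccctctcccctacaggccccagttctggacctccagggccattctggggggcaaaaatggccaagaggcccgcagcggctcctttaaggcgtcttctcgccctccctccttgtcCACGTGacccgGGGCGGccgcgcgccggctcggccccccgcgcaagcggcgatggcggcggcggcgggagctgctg
Ehmt2 window 2, chr17:34898720-34899019: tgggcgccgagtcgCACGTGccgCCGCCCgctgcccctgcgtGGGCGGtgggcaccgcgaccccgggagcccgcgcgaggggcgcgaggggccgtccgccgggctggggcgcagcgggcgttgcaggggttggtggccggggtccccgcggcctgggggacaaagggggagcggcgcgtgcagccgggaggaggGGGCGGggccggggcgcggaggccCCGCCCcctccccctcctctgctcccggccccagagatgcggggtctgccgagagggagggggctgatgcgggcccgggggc
Window 1 holds 2 GC boxes and 2 E boxes, and window 2 holds 4 GC boxes and 1 E box. Over the 32851 promoter windows of the same length, 35.7% hold a GC box and 7.15% an E box in either orientation. Neither Ehmt2 window holds the CCAAT box CCAAT, which 37.4% of all windows do. The windows contain 28 and 40 CG dinucleotides, more than 85.8% and 96.1% of all promoter windows. These are matches of letters, and no measurement here bears on binding at them.

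The deposited values of each array had a median of 5.72 to 5.80 (log2). The keratinocyte markers, at 21 probe sets of 12 genes such as Krt5, Krt14 and Krt10, averaged 11.39 to 11.45 over the WT arrays and 11.38 to 11.45 over the cKO arrays (log2), and none passed the test. These 3 keratins read 12.14 to 12.90, close to the highest value of each array, 12.97 to 13.03. Whether differences are compressed at such levels was not tested. Over 7 marker lists of other cell types, 0 probe sets passed (limma, lowest adjusted p = 0.399). Of all 76 marker probe sets, keratinocytes included, 6 had an unadjusted p under 0.05 by limma, beside 7.98% of all probe sets tested. Among the marker lists, the 9 probe sets of Langerhans and dendritic cell markers stood at -0.19 to 0.49, the highest being Cd74. Their list means were 6.79 to 7.26 on the cKO arrays and 6.48 to 7.17 on the WT arrays (log2). The part of these markers in the results below was not tested. In a principal component analysis the first component held 36.9% of the variance and did not part the groups: WT 4 stood at -23.5, beside cKO 3 and cKO 4 at -18.0 and -19.2, and cKO 2 stood at 10.7, beside the other WT arrays at 11.4 to 20.6. The second component, with 23.0%, had cKO arrays at 7.35 to 20.0 and WT arrays at -21.2 to -2.58. Results below that could rest on cKO 2 and WT 4 are therefore also given without them.

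Ehmt2, the gene of G9a, was lower in cKO at 1 of its 2 probe sets and differed by less than the spread between replicates at the other. At probe set 1460692_PM_at the WT arrays read 9.77, 9.25, 9.69 and 9.26 (log2, replicates 1 to 4) and the cKO arrays 7.07, 6.72, 6.35 and 6.30. The groups did not overlap, and the highest cKO array lay over 2 log2 units below the lowest WT array. Expressed as a percentage of the geometric mean of WT, the cKO arrays held 18.7%, 14.6%, 11.4% and 11.0% of the signal, whereas the WT arrays spread from 84.4% to 121%. How much of this signal is background is not known, so these are not shares of remaining RNA. The group means were 6.61 ± 0.36 in cKO and 9.49 ± 0.28 in WT (SD, n = 4 each). The fitted difference was -2.88 (SE 0.19, 95% interval -3.30 to -2.46), with a limma adjusted p of 0.000244 over all probe sets. By the exact two-sided permutation test p was 0.0286, which is as small as groups of 4 permit. Without cKO 2 and WT 4 the difference was -2.99 (limma adjusted p = 0.00158). In these bulk samples fewer cells with the sequence that 1460692_PM_at reads and less of that sequence per cell cannot be told apart. The value of this probe set alone does not give the level of the whole Ehmt2 transcript.

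At probe set 1426888_PM_at the cKO arrays read 8.40, 8.29, 8.42 and 8.33 and the WT arrays 8.28, 8.44, 8.22 and 8.45. All 4 cKO arrays lay inside the range of the WT arrays. The difference was 0.012 (SE 0.063, 95% interval -0.13 to 0.15, limma adjusted p = 0.996), so that the interval holds changes of up to 1.11-fold. The annotation gives the same target record for both Ehmt2 probe sets, and their probes were not used here. The sources used here do not state the deleted part of the gene or where the probes of either probe set lie in it. Which probe set reads the deleted part was therefore not tested, and the value of 1426888_PM_at by itself is no check of the knockout.

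**Figure D1:**
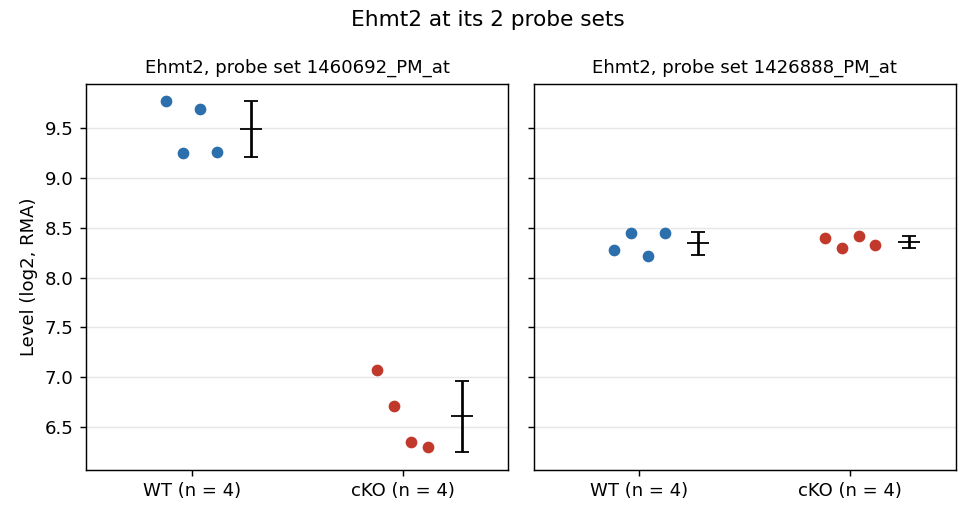
Level of Ehmt2 (log2, RMA) at its 2 probe sets, 1 point per array for 4 WT (blue) and 4 cKO (red) arrays, with mean and SD beside the points. At 1460692_PM_at the cKO arrays sit at 6.30 to 7.07 and the WT arrays at 9.25 to 9.77, while at 1426888_PM_at both groups sit between 8.22 and 8.45.

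The disagreement of the probe sets was described on the same arrays, as the value of 1460692_PM_at minus that of 1426888_PM_at. It was 1.14 ± 0.39 in WT and -1.75 ± 0.36 in cKO (log2, SD, n = 4 each), and the 2 groups differed by -2.89 (exact permutation p = 0.0286, the smallest of 70 arrangements). Since 1460692_PM_at was taken because it was the Ehmt2 probe set that fell, and its groups do not overlap, this p adds no support of its own. Without cKO 2 and WT 4 the difference between the groups was -3.06 (exact p = 0.10), and with the replicate number as a block -2.89 (exact p = 0.125), each the smallest p that its design allows and above 0.05. The WT arrays had differences of 1.49, 0.80, 1.47 and 0.81, and the cKO arrays of -1.33, -1.58, -2.07 and -2.03. WT 1 and WT 3 read highest at 1460692_PM_at and lowest at 1426888_PM_at, with WT 2 and WT 4 the other way round.

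The fall of 1460692_PM_at was the largest among all 45037 probe sets. The next was that of Skint10, a gene of epidermal membrane proteins, at -1.32 (limma adjusted p = 0.0559). By p-value 1460692_PM_at ranked 14th. Of all probe sets 210 changed, or 0.466%, and 33, or 0.0733%, were lower in cKO.

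**Figure D2:**
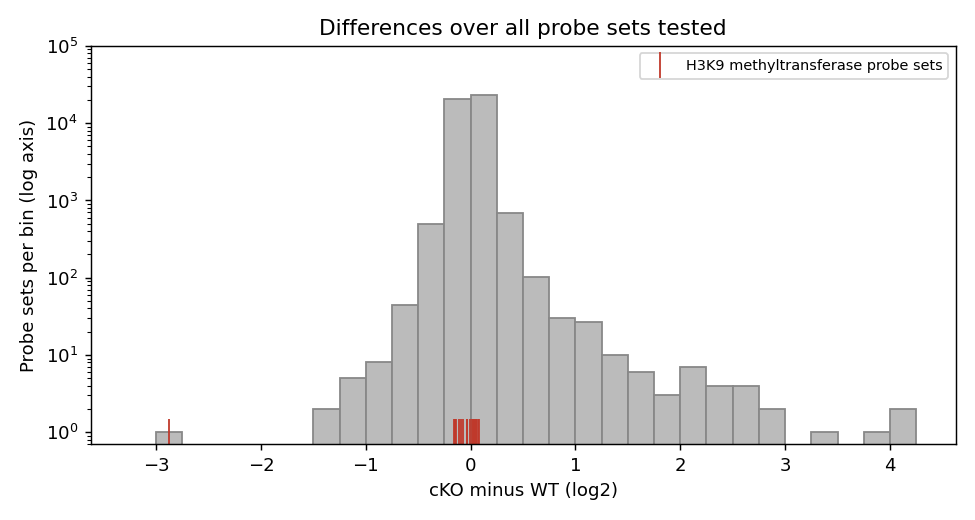
Number of probe sets (log axis) in bins of the difference cKO minus WT (log2, bins of 0.25) over all 45037 probe sets, with a red tick for each of the 21 probe sets of the H3K9 methyltransferase genes. The tick at -2.88 is Ehmt2 1460692_PM_at, the only probe set in its bin, and the other 20 ticks lie between -0.16 and 0.078.

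The probe sets with 1 gene whose values followed 1460692_PM_at most closely over the 8 arrays were those of Crlf2, a subunit of the TSLP receptor (Pearson r = 0.993), of the ribosome biogenesis factor Nop53 at both 1451121_PM_a_at (0.989) and 1423803_PM_s_at (0.988), of the receptor tyrosine phosphatase gene Ptprz1 (0.984), and of Dnajc3, a co-chaperone of the endoplasmic reticulum (0.977). Their differences were -0.75, -0.92, -0.73, -0.66 and -0.22, and all but Dnajc3 (limma adjusted p = 0.0672) passed. The measure covers both groups, which do not overlap in any of these probe sets. The probe sets most like 1426888_PM_at were those of Rgs3 (r = 0.993), Cdc23 (0.987), Cbfa2t3 (0.978), Pus1 (0.977) and Abhd15 (0.961), each of which stood within 0.02 of 0 in cKO against WT. These lists were ordered over 28898 probe sets and 8 arrays, and the values of r are descriptions of likeness.

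The genes of the G9a complex partners did not pass the test. Ehmt1, whose product GLP is the catalytic partner of G9a, read 9.19, 8.85, 9.10 and 8.96 in cKO and 9.01, 8.97, 8.81 and 9.16 in WT. The ranges overlapped almost wholly. The difference was 0.035 (SE 0.092, 95% interval -0.17 to 0.24, limma adjusted p = 0.987). Wiz read 7.18, 6.96, 7.27 and 7.04 in cKO and 7.19, 6.93, 6.93 and 7.29 in WT, and every cKO array lay within the WT range. The difference was 0.026 (SE 0.099, 95% interval -0.20 to 0.25, limma adjusted p = 0.993). For both genes WT 4 was the highest WT array and cKO 2 the lowest cKO array. Without these 2 arrays Ehmt1 stood at 0.15 and Wiz at 0.14, and neither passed.

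Zfp644 was read at 6 probe sets, and none passed the test. Their differences were -0.15 at 1419984_PM_s_at, -0.11 at 1429623_PM_at, -0.0051 at 1419983_PM_at, 0.041 at 1436985_PM_at, 0.054 at 1439769_PM_at and 0.078 at 1449691_PM_at. At 1419984_PM_s_at the cKO arrays read 6.04, 5.84, 5.92 and 5.83 and the WT arrays 6.06, 6.13, 6.04 and 5.99. Of the cKO arrays 3 lay below all WT arrays, and cKO 1 lay among them. The 95% interval, -0.28 to -0.014, lies below 0, but the limma adjusted p was 0.557. At 1436985_PM_at the cKO arrays read 9.15, 9.36, 9.22 and 9.36 and the WT arrays 9.13, 9.44, 9.18 and 9.17, with full overlap. Probe set 1419983_PM_at read 4.12 to 4.24 in cKO and 4.11 to 4.22 in WT, and no detection call shows such a level to be above background. The annotation lists 1 target record for 3 of the 6, and these 3 stood at -0.15, -0.0051 and 0.078.

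Suv39h2, the gene of an enzyme that trimethylates H3K9 in constitutive heterochromatin, did not pass at any of its 3 probe sets. At 1422979_PM_at the cKO arrays read 6.27, 6.17, 6.20 and 5.95 and the WT arrays 6.31, 6.32, 6.23 and 6.10. The groups overlapped, with cKO 4 the lowest of all arrays. The difference was -0.093 (SE 0.077, 95% interval -0.27 to 0.082, limma adjusted p = 0.897), and without cKO 4 it was -0.026. The other probe sets, 1433996_PM_at at -0.073 and 1436561_PM_at at 0.053, read 3.97 to 4.18 and 4.51 to 4.79, again without a sign that this exceeds background. The 11 probe sets of 7 proliferation markers stood at -0.31 to 0.052, with a median of -0.074, and none passed (limma, lowest adjusted p = 0.443). That of Mki67, at -0.18, had groups that did not overlap, as 4.89% of all probe sets did. The part of proliferation in the values of Suv39h2 was not tested.

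Setdb1, the gene of the H3K9 trimethylating enzyme that TRIM28 recruits, gave differences of opposite sign at its 2 probe sets, neither of which passed. At 1416670_PM_at the cKO arrays read 9.09, 8.82, 8.99 and 8.91 and the WT arrays 8.87, 8.82, 8.81 and 9.12. WT 4 was the highest array of all, WT 1 lay inside the cKO range above cKO 2, and WT 2 and WT 3 lay at or just below its low end. The difference was 0.048 (95% interval -0.14 to 0.23, limma adjusted p = 0.973). At 1451833_PM_a_at the cKO arrays read 7.55, 7.13, 7.40 and 7.27 and the WT arrays 7.48, 7.33, 7.39 and 7.76. Again WT 4 was the highest and cKO 2 the lowest. The difference of -0.15 (95% interval -0.40 to 0.097, limma adjusted p = 0.857) had the widest interval of the 20 probe sets other than 1460692_PM_at, and without cKO 2 and WT 4 it was 0.0045, while that of 1416670_PM_at was 0.16.

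Setdb2, a relative of Setdb1, read 5.81, 5.69, 5.85 and 5.60 in cKO and 5.68, 5.83, 5.56 and 5.61 in WT, with overlapping groups. The difference was 0.069 (SE 0.075, 95% interval -0.10 to 0.24, limma adjusted p = 0.940). Trim28 did not pass at either probe set. At 1415869_PM_a_at the cKO arrays read 10.45, 10.36, 10.27 and 10.16 and the WT arrays 10.37, 10.40, 10.33 and 10.28, so that all WT arrays lay inside the cKO range. The difference was -0.032 (95% interval -0.18 to 0.11, limma adjusted p = 0.981). At 1456308_PM_x_at the difference was 0.029 (95% interval -0.099 to 0.16, limma adjusted p = 0.980), with cKO arrays at 10.87 to 11.04 and WT arrays at 10.79 to 10.97. The suffix _x_at marks probes that other transcripts may share, so the share of Trim28 in that value is uncertain.

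Cdyl, the gene of the chromodomain protein that associates with G9a, was the only gene of the list with several probe sets that all stood below 0, and none of the 3 passed. At 1418071_PM_s_at the cKO arrays read 7.38, 7.38, 7.41 and 7.17 and the WT arrays 7.63, 7.45, 7.58 and 7.31. Of the WT arrays 3 lay above all cKO arrays, and WT 4 lay among them. The difference was -0.16 (SE 0.080, 95% interval -0.34 to 0.022, limma adjusted p = 0.701, exact permutation p = 0.171). At 1448935_PM_at the cKO arrays read 6.36, 6.27, 6.27 and 6.22 and the WT arrays 6.41, 6.49, 6.54 and 6.26. The same 3 WT arrays lay above all cKO arrays, and WT 4 lay among them. The difference was -0.14 (SE 0.066, 95% interval -0.29 to 0.0043, limma adjusted p = 0.643, exact permutation p = 0.114). At 1418070_PM_at the difference was -0.033 (limma adjusted p = 0.958). Without cKO 2 and WT 4 the differences were -0.23 at 1418071_PM_s_at and -0.20 at 1448935_PM_at, and none passed. The 3 probe sets have the same target record and so are not independent readings.

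**Figure D3:**
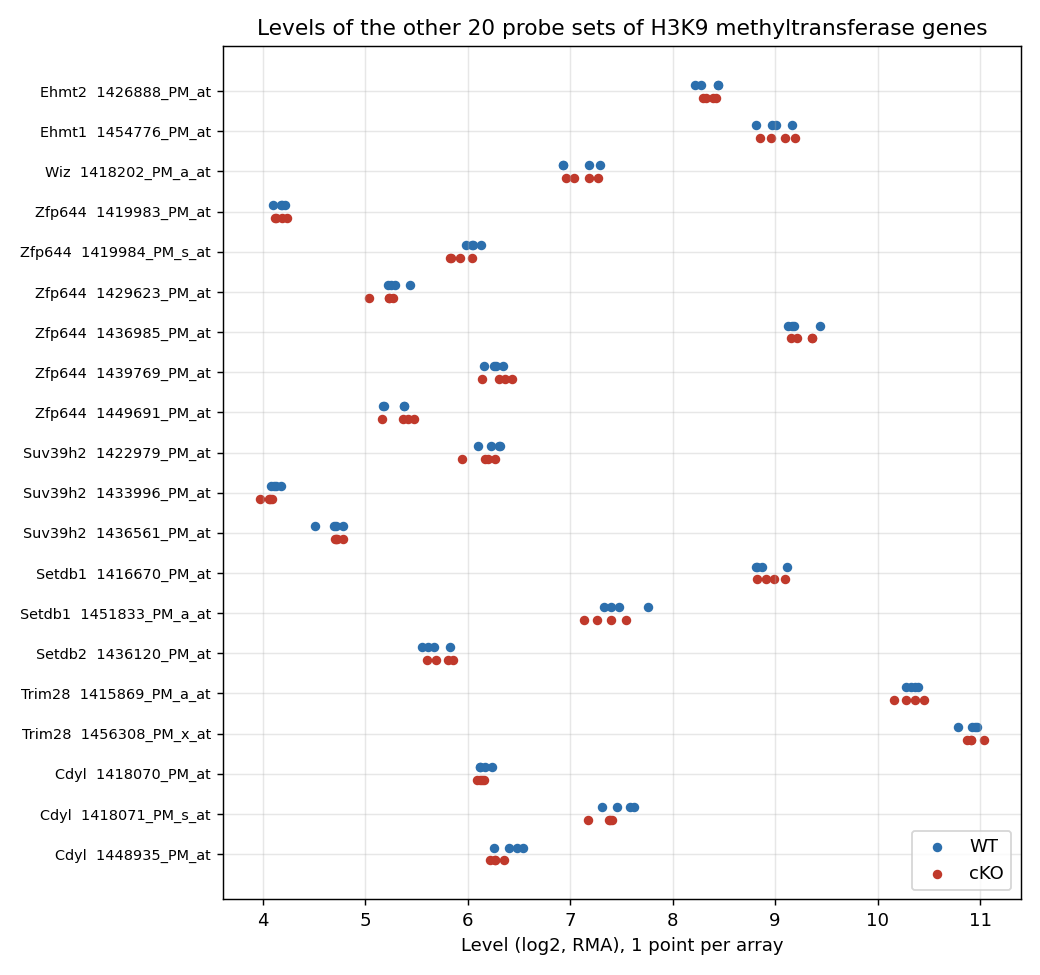
Level (log2, RMA) on each of the 4 WT (blue) and 4 cKO (red) arrays at the 20 probe sets other than Ehmt2 1460692_PM_at, in the order of the genes in the text. In each of the 20 rows the red and blue points overlap; levels of different probe sets are not comparable, since probes differ in brightness.

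Over the list, 1 of 21 probe sets passed, and this was 1460692_PM_at, beside 0.466% of all probe sets. Its groups were also the only ones in the list without overlap, where 4.89% of all probe sets had groups that did not overlap. Of the other 20 probe sets 10 stood above 0 and 10 below, with a median of 0.0033, against 0.0053 over all probe sets (log2). Their median distance from 0 was 0.054, against 0.049 over all. By limma, 1 of the 20 had an unadjusted p under 0.05, Zfp644 1419984_PM_s_at, where 7.98% of all probe sets did. The 95% intervals of all 20 lay within 0.5 of 0. The widest reach was that of Setdb1 1451833_PM_a_at, whose interval holds a change of up to 1.32-fold, and the narrowest that of Zfp644 1419983_PM_at, at 1.08-fold. A p above the threshold does not show that the levels were equal, and differences inside these intervals were not resolved with 4 arrays a group.

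**Figure D4:**
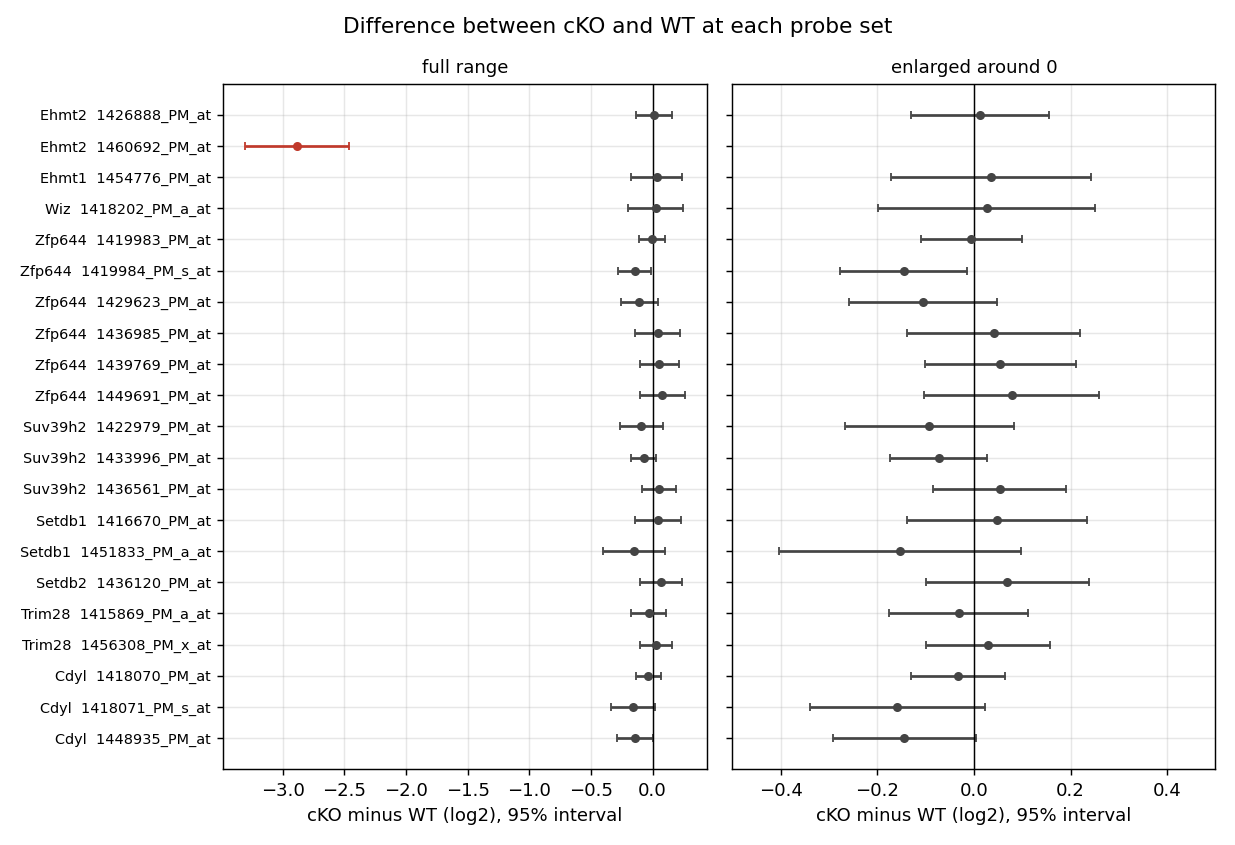
Difference cKO minus WT (log2) with its 95% interval from limma at each of the 21 probe sets, on the full range at the left and enlarged at the right, where Ehmt2 1460692_PM_at lies outside the axis. Red marks an adjusted p under 0.05; the other 20 intervals lie between -0.40 and 0.26.

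The within-group spread of the 20 probe sets was like that of the array as a whole, with a median SD of 0.103 against 0.0905 over all probe sets. Among the cKO arrays, cKO 1 was the highest at 12 of the 20 probe sets, where this held for 43.1% of all probe sets, and cKO 4 was the lowest at 11, against 36.0%. Among the WT arrays, WT 4 was the lowest at 10 and the highest at 6, against 32.3% of all probe sets for each, and WT 2 was the highest at 8, against 33.1%. These counts were not tested, and several of the probe sets share a target record. The 6 probe sets at which WT 4 was highest were Ehmt2 1426888_PM_at, Suv39h2 1436561_PM_at and those of Ehmt1, Wiz and Setdb1. At each of these cKO 2 was the lowest array of its group. Over the list cKO 2 was the lowest at 7 of the 20, against 30.8% of all probe sets. The 6 were picked by the value of WT 4, and their likeness was not tested.

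Genes around the methyltransferases were read in 5 lists with 130 probe sets, of which 1 rose and none fell. Of the 14 measured genes of cofactors and relatives, Zfp518a rose by 0.83 (SE 0.11, limma adjusted p = 0.0120). It encodes a zinc finger protein whose human relative ZNF518B is known to bind G9a. Its only probe set read 4.99, 4.95, 5.24 and 5.06 in cKO and 4.05, 4.21, 4.11 and 4.54 in WT. The groups did not overlap and WT 4 was the nearest to cKO. These values are low, with no detection call to set them above background, and the call was lost without WT 1 (0.77, adjusted p = 0.0514) or WT 3 (0.79, adjusted p = 0.0526). The zinc finger gene Zfp462, the PR domain gene Prdm16 and Morc2a, the effector ATPase of the HUSH complex, stood at 0.46, 0.31 and -0.18 at the probe sets that differed most, and did not pass. Without WT 2 Zfp462 stood at 0.65 at that probe set and passed (limma adjusted p = 0.0455). Without cKO 2 and WT 4 Prdm16 stood at 0.46 at its most different probe set and passed (limma adjusted p = 0.0181). In that setting 657 of all 45037 probe sets passed, against 210 on all arrays. On all arrays the other probe sets of Zfp462 stood at 0.11 and 0.12, and those of Prdm16 at 0.0049 to 0.074.

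None of the 10 measured H3K9 demethylase genes passed at any of 19 probe sets, with a list median of -0.0021 (lowest limma adjusted p = 0.472). The furthest from 0, each at its most different probe set, were Kdm7a at -0.16, the LSD1 gene Kdm1a at -0.14, Phf2 at 0.12 and Kdm4d at 0.11. The other probe sets of Phf2 stood at -0.032 to 0.034, those of Kdm7a at -0.12 and -0.026, and that of Kdm1a at -0.071. Among 14 probe sets of readers of the mark, none passed and the median was -0.055. Cbx5, the gene of HP1 alpha, stood at -0.31 at 1421932_PM_at (SE 0.072, limma adjusted p = 0.153), with cKO arrays at 5.48 to 5.73 and WT arrays at 5.80 to 6.03. The groups did not overlap there, but at its other 4 probe sets, which stood at -0.15 to -0.027, they did. Uhrf1, which links H3K9 methylation to DNA methylation, stood at -0.20, the HP1 beta gene Cbx1 at -0.11 and Chd4 at 0.075, each at its most different probe set. Elsewhere Uhrf1 stood at -0.11 and Cbx1 at -0.057 to -0.033.

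Of 12 measured genes of factors that recruit or accompany G9a none passed at 26 probe sets (median -0.016). At the most different probe set of each, the repressor gene Prdm1 stood at -0.20, the deacetylase gene Hdac2 at 0.15, Rest at 0.095 and Snai1 at -0.094. Elsewhere Hdac2 stood at 0.061 and Rest at -0.063 to -0.0062. Of 18 measured genes of methyltransferases for other histone residues none passed at 41 probe sets (median -0.051). The Polycomb genes Suz12 and Ezh2 stood at -0.22 and -0.15, the H4K20 methyltransferase gene Kmt5a at -0.14 and the H3K4 methyltransferase gene Kmt2c at -0.13, each at its most different probe set. Elsewhere Suz12 stood at -0.17 to -0.030, Kmt5a at -0.12 and Kmt2c at -0.12 to -0.041. Over the 5 lists together 1 of 130 probe sets passed, beside 0.466% of all probe sets, 12 had an unadjusted p under 0.05, beside 7.98% of all, and the median was -0.024, against 0.0053 over all probe sets.

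The 5 protein-coding genes on each side of Ehmt2 in the reference gene order were examined because the gene lies in a dense part of the MHC region. None of their 10 probe sets, for 8 measured genes, passed the test, beside 0.466% of all probe sets. By limma 1 had an unadjusted p under 0.05, beside 7.98% of all. Of the 10, 8 stood below 0, as did 21151 of all 45037 probe sets. The median of the 10 was -0.097, against 0.0053 over all probe sets. Because 3 of the 10 belong to Hspa1b, they are not independent readings. The complement gene C2 stood furthest from 0, at -0.49 (SE 0.12, limma adjusted p = 0.182). Its cKO arrays read 6.77, 6.92, 6.52 and 6.48 and its WT arrays 7.25, 7.16, 7.32 and 6.90. The groups overlapped only between cKO 2 and WT 4. Without these 2 arrays C2 stood at -0.65 and passed (limma adjusted p = 0.0167). Leaving out the arrays that overlapped favours such a call. In that setting 657 of all 45037 probe sets passed, against 210 on all arrays. The genes nearest to Ehmt2, Slc44a4 and Zbtb12 among those measured, stood at 0.0091 and -0.0061. The complement gene Cfb stood at -0.092, Skiv2l at -0.10, Nelfe at -0.071 and the heat shock protein gene Hspa1l at -0.12. The 3 probe sets of Hspa1b stood between -0.40 and 0.018, and its transcript is nearly identical to that of its neighbour Hspa1a, so that the share of each is uncertain.

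**Figure D5:**
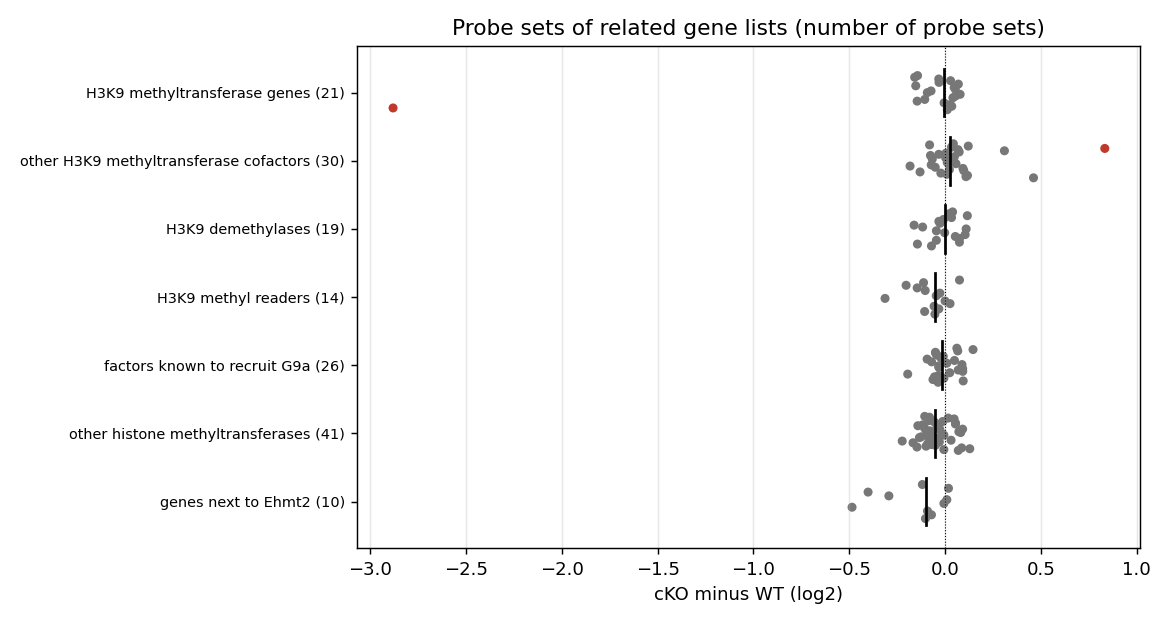
Difference cKO minus WT (log2) at each probe set of the H3K9 methyltransferase genes, of 5 related lists and of the genes next to Ehmt2, with the number of probe sets in brackets and the list median as a black bar. Red marks an adjusted p under 0.05, which holds for Ehmt2 1460692_PM_at at -2.88 and Zfp518a at 0.83.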

How the data were processed

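RNA of 8 samples was hybridised to 1-colour arrays. Per the labels' protocols, 25 ng of total RNA were amplified in 17 cycles and 8 µg of cDNA were labelled. The deposited log2 values are the authors' RMA values, per the submitters' processing notes; the version is not given in the sources used here, and base 2 is inferred from the range. RMA equalises the distributions of the arrays, which hides a shift common to all genes. Probe sets differ in brightness, so levels were compared between groups within a probe set. Exceptions were the means of marker lists, the per-array difference of the Ehmt2 probe sets and a choice of the brightest probe set per gene. Of 45141 rows 104 controls were left out. The annotation gives 1 gene for 28898 of the 45037 others. Current symbols came from the RefSeq table for GRCm38.p6, which gave 28689 of these.

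All probe sets were fitted with limma 3.58.1 (R 4.3.3); two-sided p-values were adjusted by Benjamini-Hochberg over all of them, the threshold was 0.05, and intervals are at 95%. The procedure was tried on simulated data with independent noise at each probe set. Such data lack the structure that the real arrays share, so this is no check of the results above. Exact permutation tests of 4 against 4 arrays ran over 70 arrangements. The labels do not say that replicates are separate animals, so the p-values may reflect technical spread only. The members and lists were chosen with earlier results of these data known. Of the listed genes, 15 without a probe set were not analysed here. Named were the members, up to 4 genes per list (changed first, then by size), the neighbours of Ehmt2 and the 5 probe sets most like each of its own; Mki67, Cd74, Skint10 and the example keratins were chosen after values were seen. Alternatives were the replicate block, dim filters, normalisation, priors, array weights, other probe set selections and leaving out arrays.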

Additional observations from a re-analysis of the deposited data

Results flagged for a closer look

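At 2 of the 42 groups of 4 values (21 probe sets in 2 groups) 1 array stood far from the other 3, by the gap to its neighbour as a share of the range; chance marks about 1 group in 20. At Cdyl 1418071_PM_s_at cKO 4 read 7.17, with the next cKO array at 7.38. At Zfp644 1429623_PM_at cKO 4 read 5.04, with the next at 5.23. Both are low values of the same array, which was the lowest cKO array at 11 of 20 probe sets of the list. Without cKO 4 the difference moved from -0.16 to -0.10 at Cdyl 1418071_PM_s_at and from -0.11 to -0.053 at Zfp644 1429623_PM_at; neither passed with or without it.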

How the results depend on the processing

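The fall of Ehmt2 1460692_PM_at passed under each of the 18 alternatives that hold this probe set, at -2.78 to -3.09, and at -2.78 to -3.03 without any 1 array. With 1 probe set per gene 1426888_PM_at stands for Ehmt2, so 0 of 9 members passed. No other member passed in any setting. The number of changed probe sets, 210, was 132 in the upper 50% of probe sets, 758 with array weights, 657 without both cKO 2 and WT 4, and 104 to 356 without single arrays (131 without cKO 2, 108 without cKO 3, 104 without WT 1, 112 without WT 3, 356 without WT 4). The pathway lists had 0 calls in the upper 50%, which leaves out Zfp518a, 3 with array weights (Zfp518a, Prdm16, Cbx5), 2 without both arrays, and 0 to 2 without single arrays. C2 was the 1 neighbour called with array weights and without both arrays.

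The replicate number as a block gave 175 changed probe sets, 147 of them shared with the 210, and changed no call of a member, a pathway gene or a neighbour in the limma fits. Neither the labels nor the values establish that the numbers pair the samples: same-numbered deviations correlated at 0.13, 0.22, -0.62 and 0.37, and 2 of the 4 cKO arrays correlated best with their own number. The difference between the Ehmt2 probe sets was -2.89 with the replicate block (exact p = 0.125) and -3.06 without both arrays (exact p = 0.10), the smallest p that these designs allow.

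Signs turned at these members, of which all but Setdb1 1451833_PM_a_at (-0.15) lay near 0: Ehmt2 1426888_PM_at to -0.0044 with median centring, Trim28 1456308_PM_x_at to -0.018 with array weights and -0.0014 without both arrays, Zfp644 1436985_PM_at to -0.0079 and Setdb1 1451833_PM_a_at to 0.0045 without both arrays. Without single arrays the ranges were -0.030 to 0.045 for Ehmt2 1426888_PM_at, -0.025 to 0.094 for Ehmt1, -0.026 to 0.094 for Wiz, -0.028 to 0.012 for Zfp644 1419983_PM_at, -0.0022 to 0.090 for Suv39h2 1436561_PM_at, -0.077 to 0.018 for Trim28 1415869_PM_a_at and -0.010 to 0.051 for 1456308_PM_x_at. The cause was not tested. The number of arrays limits the precision, and no value shows which dim probe sets lie above background.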
